A study of Homo sapiens with 4 samples.

Results

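The genes described are 10 markers of trophoblast and amnion: the transcription factors GATA2, GATA3 and TFAP2A, the keratins KRT7, KRT8, KRT18 and KRT19, and GABRP, VTCN1 and IGFBP3. They were taken by symbol from a given list, and all 10 were found among the 60483 gene identifiers of the count tables. RNA of the human embryonic stem cell line H9, also named WA09, was measured by sequencing of polyadenylated RNA in 2 control libraries and in 2 libraries of H9 cells labelled as SLC35F2 knock-out (KO). The SLC35F2 protein is a membrane transporter of the solute carrier class. The labels give no further treatment, no description of the control cells and no clone or culture for a library, so a group may be 1 clone. The p-values therefore rest on the spread between single libraries alone, and that spread may be technical.

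Trophoblast forms the outer layer of the early embryo and later the placenta, and amnion is the epithelium of the sac around the embryo. Human embryonic stem cells that receive BMP signals can turn to cells with features of both. GATA2, GATA3 and TFAP2A, with TFAP2C, are known as transcription factors that act early in that step, whereas KRT7, KRT8, KRT18 and KRT19 form the intermediate filaments of simple epithelia, a class that includes trophoblast and amnion. KRT8 and KRT18 are also made by undifferentiated embryonic stem cells, so their RNA alone does not mark either tissue.

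Between 27824693 and 37978705 reads per library were assigned to genes. The targeted gene SLC35F2 had normalised levels of 41.1 and 27.1 CPM (reads relative to the TMM-scaled library total) in the controls against 12.1 and 9.65 CPM in KO 1 and KO 2. Its RNA was present in all libraries, and the difference did not pass (adjusted p = 0.58 in edgeR's test). All 12 pluripotency markers examined, among them POU5F1 and SOX2, had enough reads to be tested, and their summed level was 8541 and 8773 CPM in controls 1 and 2 against 9140 and 6367 CPM in KO 1 and KO 2. With all libraries edgeR called 0 of them, and NANOG was lower at an unadjusted p under 0.05. In each KO library 3 of 12 were below both controls and 1 (LIN28A) was above, beside 16.3% and 15.8% of all genes. Without KO 1, when KO 2 stands alone for its group, the median log2 fold change of the 12 was -0.36. It was -1.71 for NANOG, -1.22 for L1TD1 and -1.19 for DNMT3B, which were named after their values were seen.

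None of the 10 genes passed the test of KO against control, in which the group difference was fitted over all genes. All 10 passed the filter on low counts. In edgeR's quasi-likelihood test (Benjamini-Hochberg adjusted p under 0.05) 0 of the 10 were called, beside 0.0263% of the 19027 genes tested (0.0210% lower and 0.00526% higher in KO). An unadjusted p under 0.05 was reached by 1 of the 10 (GATA2), beside 4.06% of all genes. DESeq2 called 1 of the 10 (GATA2), beside 0.357% of the 16813 genes to which it gave an adjusted p, and limma-voom called 0. VTCN1 was given no adjusted p by DESeq2. Both KO libraries were below both controls for 2 of the 10, GATA2 and IGFBP3, beside 16.3% of all genes. They were above both controls for 2 others, KRT7 and KRT19, beside 15.8% of all genes. These counts are given as a description, because the genes were chosen with earlier results of these data known.

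Control 2 had the highest level for 5 of them, beside 25.8% of all genes, and it was at least 2-fold above each other library for 4 (GATA2, TFAP2A, GABRP and IGFBP3), beside 2.45% of all genes. That GATA2 is high in control 2 was already part of the description by which the genes were listed. In RNA of whole cultures a few cells with much of an RNA and many cells with a little of it cannot be told apart, nor can fewer cells of a type and less RNA per cell.

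**Figure D1:**
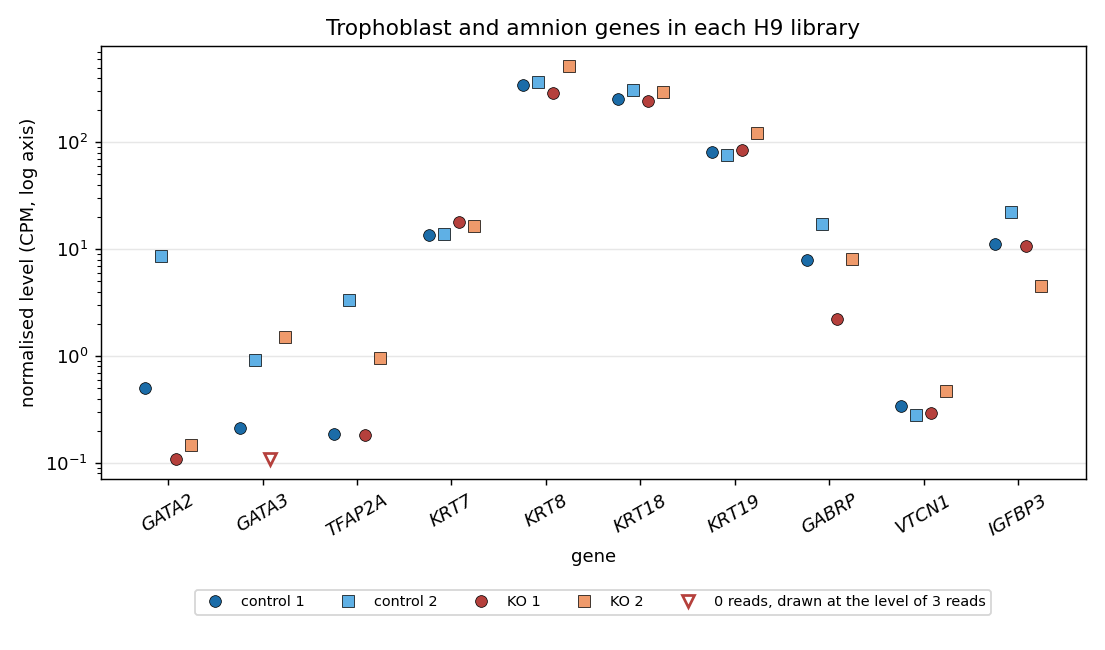
Normalised level (CPM, log axis) of each of the 10 genes in control 1, control 2, KO 1 and KO 2, 1 point per library; the open triangle is GATA3 in KO 1, with 0 reads, drawn at the level of 3 reads. KRT18 spans 241 to 306 CPM and KRT8, the most variable keratin, 290 to 521 CPM, while GATA2 spans 0.109 to 8.58 CPM with control 2 far above the rest.

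The 3 transcription factors varied most between libraries. The bases just before the outermost RefSeq start of each are shown here because GATA2 and TFAP2A had their highest level in the same library; RefSeq windows on GRCh38.p14 were at hand for 7 of the 10 genes. Each line gives 250 bases, 5′ to 3′ on the gene's strand, ending at the base before the start, and no base of them lies in an exon of GENCODE 29. Capitals mark matches on either strand to a motif of AP-2 proteins (GCCNNNGGC), of SMAD proteins (GGCGCC) or of the TATA box (TATAAA), and all other bases are in lower case.
GATA2: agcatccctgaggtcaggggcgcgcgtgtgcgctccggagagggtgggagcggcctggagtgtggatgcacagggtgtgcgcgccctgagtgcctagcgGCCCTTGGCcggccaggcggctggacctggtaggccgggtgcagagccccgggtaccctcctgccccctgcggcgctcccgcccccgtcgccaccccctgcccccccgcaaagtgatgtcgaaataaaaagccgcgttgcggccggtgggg
GATA3: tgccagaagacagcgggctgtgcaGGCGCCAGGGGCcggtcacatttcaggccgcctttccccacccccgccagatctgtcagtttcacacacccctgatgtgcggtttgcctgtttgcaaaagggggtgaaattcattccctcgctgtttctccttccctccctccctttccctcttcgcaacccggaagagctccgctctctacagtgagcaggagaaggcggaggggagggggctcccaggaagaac
TFAP2A: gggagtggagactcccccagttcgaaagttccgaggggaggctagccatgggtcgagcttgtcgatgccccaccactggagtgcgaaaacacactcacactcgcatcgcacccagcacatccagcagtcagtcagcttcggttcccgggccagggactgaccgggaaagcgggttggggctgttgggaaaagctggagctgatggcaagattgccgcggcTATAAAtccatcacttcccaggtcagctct

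The GATA2 window lies at chr3:128493202-128493451 on the minus strand, inside an intron of the antisense gene GATA2-AS1, and holds 1 AP-2 match. The window of an inner GATA2 start, at chr3:128488531-128488780 and not printed, holds 2 AP-2 and 2 SMAD matches. GATA3 and TFAP2A also have inner RefSeq starts, which are not shown. The GATA3 window lies at chr10:8045083-8045332 on the plus strand and holds 1 SMAD match and 1 AP-2 match, which overlap and are printed as a single run of capitals. In the TFAP2A window, at chr6:10419660-10419909 on the minus strand, the single match was to the TATA box. Of 35116 RefSeq windows of the same length, 19.8% held the AP-2 motif, 16.4% the SMAD motif and 10.7% the TATA motif. A motif of GATA factors (AGATAA, with T also allowed as its first base and G as its last), found in 22.3% of all windows, had no match in these letters of the 3 windows. The matches describe letters only, and binding was not measured.

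GATA2 encodes a zinc finger transcription factor that acts in trophoblast and also in blood precursors and endothelium. The gene lies on chromosome 3 (128479427 to 128493185, minus strand, GRCh38). It had 19 and 305 reads in controls 1 and 2 against 3 and 5 reads in KO 1 and KO 2, or 0.504, 8.58, 0.109 and 0.146 CPM. Control 2 thus held 91.9% of the GATA2 reads, and control 1, although above both KO libraries, was nearer to them than to its own replicate. Control 2 was 17.0-fold above control 1 (95% exact counting interval 10.7 to 28.7), 78.7-fold above KO 1 (26.7 to 384) and 58.7-fold above KO 2 (24.9 to 182). These intervals cover counting error only. Control libraries averaged 4.54 ± 5.71 CPM (SD, n = 2), KO libraries 0.128 ± 0.0263 (SD, n = 2). On the log2 scale KO differed by -5.08 ± 1.55 (SE), with a 95% confidence interval from -8.64 to -1.53 (unadjusted p = 0.0107, adjusted p = 0.997 in edgeR's test). DESeq2 gave an adjusted p of 0.00243. Without control 2 the log2 fold change was -1.93, and the lone control library is then assumed to vary as the KO libraries do.

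TFAP2A encodes AP-2 alpha, a transcription factor of trophoblast, surface ectoderm and neural crest. It lies on chromosome 6 (10393186 to 10419659, minus strand). Its counts were 7 and 118 reads in controls 1 and 2 against 5 and 33 reads in KO 1 and KO 2, or 0.186, 3.32, 0.182 and 0.965 CPM. Control 2 was highest and KO 2 second, while control 1 and KO 1 were almost equal, so the groups overlapped. Its log2 fold change was -1.51 (95% confidence interval -4.27 to 1.25; adjusted p = 0.997 in edgeR's test). Without control 2 it turned to 1.67.

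GATA3, a zinc finger factor related to GATA2, lies on chromosome 10 (8045378 to 8075203, plus strand). It had 8 and 33 reads in controls 1 and 2 against 0 and 52 reads in KO 1 and KO 2, or 0.212, 0.929, 0 and 1.52 CPM. A count of 0 in KO 1 allows up to 0.109 CPM (3 reads). KO 2 was the highest library and at least 13.9-fold above KO 1 against that floor, so the KO libraries were the 2 extremes and the controls lay between them. An estimate of 0.54 (log2; 95% confidence interval -2.10 to 3.18; adjusted p = 0.997 in edgeR's test) did not pass. Its sign followed single libraries, with -7.25 without KO 2, where the lone KO library holds no read and the value is no measure of size, and -0.20 without control 1. Unlike GATA2 and TFAP2A, GATA3 was therefore not highest in control 2.

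The antisense and intergenic RNAs of these 3 loci were almost without reads. GATA2-AS1 and GATA3-AS1 each had 3 reads in control 2 and 0 in the other libraries, AL390294.1, which overlaps GATA3, had 1 read in control 2, and TFAP2A-AS1 had 1 read in KO 2. At this depth they allow no comparison.

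The keratins made up most of the RNA of the 10 genes. Summed over KRT7, KRT8, KRT18 and KRT19 the level was 693 and 764 CPM in controls 1 and 2 against 633 and 957 CPM in KO 1 and KO 2. Control libraries averaged 728 ± 49.9 CPM (SD, n = 2) and KO libraries 795 ± 229 (SD, n = 2), and the spread between the KO libraries was larger than the difference of the means. KRT8 and KRT18 gave 83.8% to 88.2% of this sum in each library.

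KRT8, the type II keratin that pairs with KRT18, lies on chromosome 12 (52897187 to 52949954, minus strand). It had 347 and 368 CPM in controls 1 and 2 against 290 and 521 CPM in KO 1 and KO 2. KO 1 was the lowest library and KO 2 the highest, with both controls between. Its log2 fold change was 0.18 (95% confidence interval -0.53 to 0.90; adjusted p = 0.997 in edgeR's test).

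KRT18, the type I partner, starts beside KRT8 on the opposite strand (chromosome 12, 52948871 to 52952901, plus strand). It had 252 and 306 CPM in controls 1 and 2 against 241 and 297 CPM in KO 1 and KO 2. The highest library was 1.27-fold above the lowest, the smallest such ratio among the 10 genes. The log2 fold change was -0.05 (95% confidence interval -0.65 to 0.55; adjusted p = 0.997 in edgeR's test), an interval that leaves out a change of 2-fold in either direction. Its sign turned without control 2 and without KO 1.

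Keratin filaments contain a type I and a type II chain in equal number. Per length of the annotated principal transcript, the RNA ratio of KRT8 to KRT18 was 1.01 and 0.884 in controls 1 and 2 against 0.884 and 1.29 in KO 1 and KO 2. KO 2 was the highest, and the other libraries were near each other. The annotated spans of KRT8 and KRT18 overlap by 1084 bases, where reads may have been left out as ambiguous or, if strand was not used, cannot be told apart. Both genes also have many processed copies: 50 KRT8 pseudogenes took 1.99% to 3.26% as many reads as KRT8 itself, and 67 KRT18 pseudogenes took 0.531% to 0.906% as many as KRT18. Reads without a unique alignment, 6.35% to 6.88% of each library, are listed apart in the count tables and belong to no gene there, so the levels of KRT8 and KRT18 are uncertain by an amount that was not measured.

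KRT19, a small type I keratin of simple epithelia (chromosome 17, 41523617 to 41528308, minus strand), had 80.4 and 76.2 CPM in controls 1 and 2 against 84.7 and 122 CPM in KO 1 and KO 2. KO 1 was barely above the controls and KO 2 clearly above. Its log2 fold change was 0.40 (95% confidence interval -0.25 to 1.05; adjusted p = 0.997 in edgeR's test), while without KO 2 it was 0.12 and without KO 1 it was 0.65.

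KRT7, a type II keratin often used to stain trophoblast, lies on chromosome 12 (52232520 to 52252186, plus strand). It had 13.7 and 13.8 CPM in controls 1 and 2 against 17.8 and 16.6 CPM in KO 1 and KO 2. Its replicates were close, with means of 13.8 ± 0.123 CPM (SD, n = 2) for control and 17.2 ± 0.869 for KO (SD, n = 2), and the groups did not overlap. The log2 fold change of 0.32 ± 0.33 (SE; 95% confidence interval -0.44 to 1.07) did not pass (unadjusted p = 0.363, adjusted p = 0.997 in edgeR's test). The overlapping antisense gene KRT7-AS had 9, 3, 8 and 7 reads in control 1, control 2, KO 1 and KO 2.

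**Figure D2:**
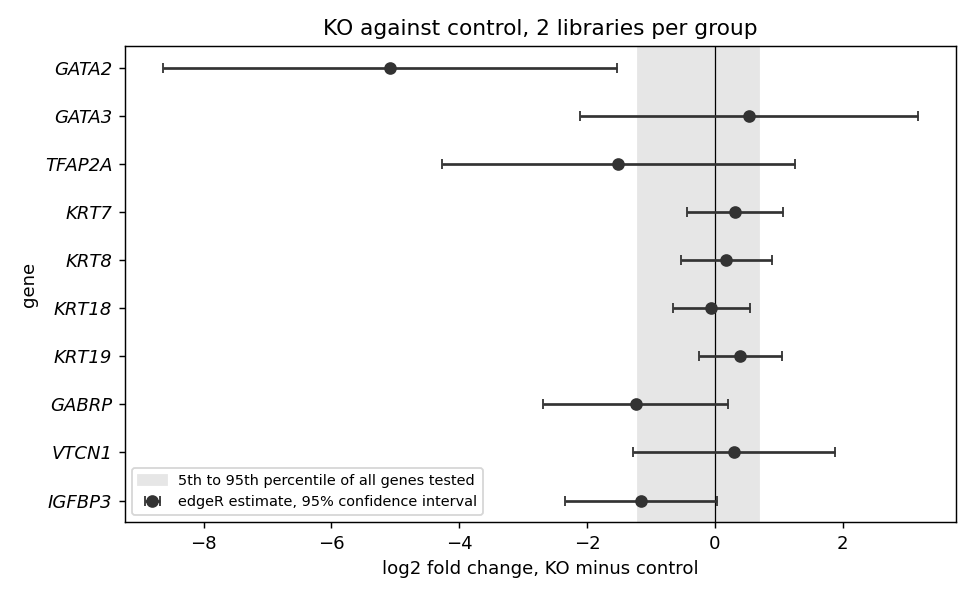
Log2 fold change of KO against control for the 10 genes (points, edgeR estimates with all 4 libraries) with 95% confidence intervals (bars); the grey band spans the 5th to 95th percentile of all genes tested. The 4 keratins sit between -0.05 and 0.40, with intervals that include 0 and reach 1.07 for KRT7 and 1.05 for KRT19. GATA2 (-5.08), TFAP2A (-1.51) and GABRP (-1.24) lie below the band, which runs from -1.20 to 0.70.

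GABRP, VTCN1 and IGFBP3 are known from the surface or secretions of trophoblast and amnion. GABRP encodes the pi subunit of the GABA type A receptor, an early marker of the response of stem cells to BMP (chromosome 5, 170763350 to 170814047, plus strand). It had 7.87 and 17.1 CPM in controls 1 and 2 against 2.22 and 8.16 CPM in KO 1 and KO 2. Control 1 and KO 2 were alike, control 2 was above them and KO 1 below, and the groups overlapped. The log2 fold change was -1.24 (95% confidence interval -2.68 to 0.20; unadjusted p = 0.0827, adjusted p = 0.997 in edgeR's test). Without KO 2 it was -2.49 and GABRP was called (adjusted p = 0.00157 in edgeR's test, in which 0.927% of all genes were called), whereas without KO 1 it was -0.60 and without control 2 it was -0.59. The antisense RNA AC008514.1, whose span covers the first 25301 bases of GABRP on the opposite strand, had 2.09, 3.88, 0.436 and 0.848 CPM in control 1, control 2, KO 1 and KO 2. It thus had the same highest and lowest library as GABRP, and, unlike GABRP, was lower in both KO libraries (log2 fold change -2.17, unadjusted p = 0.00968, adjusted p = 0.997 in edgeR's test). If strand was not used in the counting, reads of the pair cannot be told apart.

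VTCN1 encodes B7-H4, an inhibitory surface ligand of T cells that is made by trophoblast (chromosome 1, 117143587 to 117210960, minus strand). It had 13, 10, 8 and 16 reads in control 1, control 2, KO 1 and KO 2, or 0.345, 0.281, 0.291 and 0.468 CPM. Its log2 fold change was 0.30 with an interval of -1.28 to 1.89 (adjusted p = 0.997 in edgeR's test), so a change of 2-fold either way was not detectable at this depth.

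IGFBP3 encodes a secreted protein that binds insulin-like growth factors (chromosome 7, 45912245 to 45921874, minus strand). It had 11.1 and 22.4 CPM in controls 1 and 2 against 10.7 and 4.50 CPM in KO 1 and KO 2. Control 2 was highest and KO 2 lowest, and although both KO libraries were below both controls, KO 1 and control 1 nearly met. Control libraries averaged 16.8 ± 7.99 CPM (SD, n = 2), KO libraries 7.62 ± 4.40 (SD, n = 2). The log2 fold change was -1.15 ± 0.52 (SE; 95% confidence interval -2.34 to 0.04; unadjusted p = 0.0558, adjusted p = 0.997 in edgeR's test). Without KO 1 it was -1.88 and IGFBP3 was called (adjusted p = 0.00419 in edgeR's test, in which 5.31% of all genes were called), while without KO 2 it was -0.64 and without control 2 it was -0.56. IGFBP3 and GABRP thus shared their highest library, control 2, but not their lowest.

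**Figure D3:**
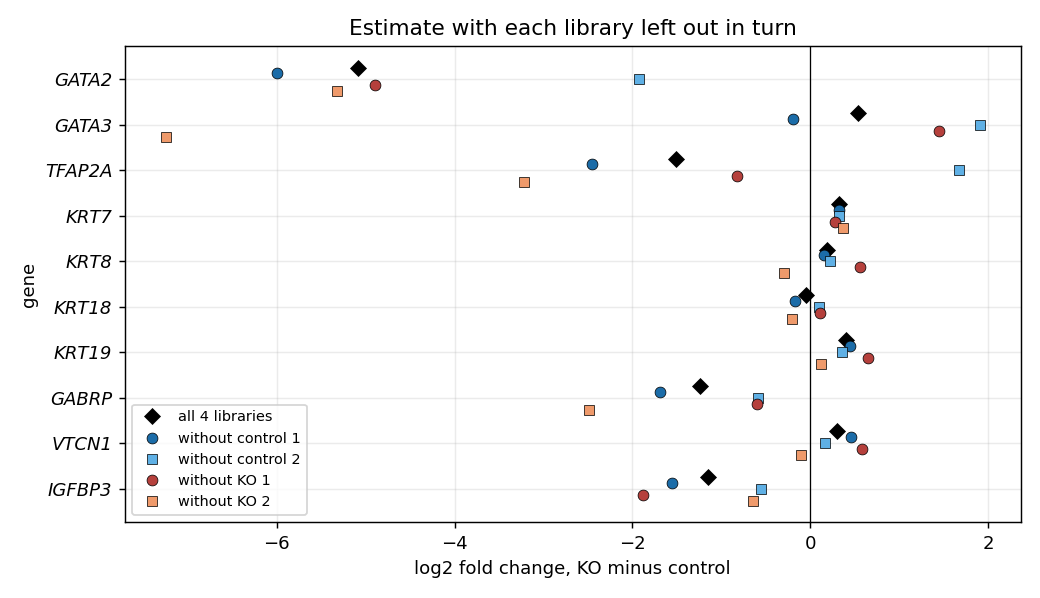
Log2 fold change of KO against control for each gene with all 4 libraries (diamonds) and with each library left out in turn (circles and squares); a lone library in a group is assumed to vary as the other group does. KRT7 stays between 0.28 and 0.37, whereas TFAP2A runs from -3.22 without KO 2 to 1.67 without control 2.

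To compare the genes with each other, levels were divided by the length of the principal transcript (CPM per kilobase, mean ± SD over all 4 libraries). KRT8 (179 ± 46.5) and KRT18 (175 ± 20.7) were highest and their ranges overlapped. KRT19 (65.3 ± 15.1) stood apart from both neighbours. KRT7 (8.82 ± 1.16), IGFBP3 (5.39 ± 3.30) and GABRP (2.47 ± 1.72) followed, each with a range that overlapped that of the next gene in this order. GATA2 (0.694 ± 1.24), TFAP2A (0.562 ± 0.717), GATA3 (0.251 ± 0.262) and VTCN1 (0.133 ± 0.0328) were lowest, and their order is not resolved by the 4 libraries. With the length of all annotated exons in place of the principal transcript KRT18 came before KRT8, and GATA3 before TFAP2A.

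GATA2 was compared with 14826 other protein-coding genes by the root mean square difference of centred log2 CPM over the 4 libraries. The 5 nearest were THBS1, FOS, NOTUM, GCNT4 and INSM1, with differences of 0.68 to 0.91 on the log2 scale. THBS1, which encodes the matrix protein thrombospondin-1, had 90.9 and 533 CPM in controls 1 and 2 against 33.7 and 18.3 CPM in KO 1 and KO 2, and FOS, an immediate early gene, had 24.8, 176, 5.89 and 20.6 CPM in the same order. GCNT4 had 9.70, 32.6, 2.80 and 2.11 CPM. NOTUM had 13, 74, 2 and 7 reads and INSM1 39, 155, 11 and 9 reads. All 5 had their highest level in control 2, by design of the measure. TFAP2A came at rank 116, GABRP at 171 and IGFBP3 at 348, while GATA3 came at 5437. For KRT18 the nearest were DOCK6, COQ3, VPS8, PIGL and IQCB1, with differences of 0.0076 to 0.022. KRT8 came at rank 3228 of 14826, so the filament partner was not among the genes nearest to KRT18. With 4 libraries such likeness is a description without a test.

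The related genes of the GATA and AP-2 families also varied by library. In the list of other family members and partners, 8 of 13 could be tested and 0 were called by edgeR or DESeq2. Of the 8, 3 were below both controls in each KO library and 1 above, beside 16.3% and 15.8% of all genes. Their median change was -0.24 on the log2 scale, against 0.029 for all genes. This median was -0.09 without control 2, over 8 genes, and -0.89 without control 1, -0.64 without KO 2 and -0.43 without KO 1, each over 10 genes. The genes added were GATA4 (2, 26, 4 and 4 reads in control 1, control 2, KO 1 and KO 2) and GATA6 (3, 37, 5 and 0). They passed the filter on low counts only through control 2, so the medians over 10 genes cannot be set beside -0.24. At an unadjusted p under 0.05, 1 (GATA5) was lower. TFAP2C, the AP-2 gamma factor of trophoblast, had 4.88 and 14.6 CPM in controls 1 and 2 against 0.982 and 8.36 CPM in KO 1 and KO 2, with the controls and KO 2 overlapping. The most abundant members were CITED2, a coactivator partner of AP-2 (log2 fold change 0.88, interval -0.48 to 2.25), and KCTD15, an inhibitor of AP-2 (0.03, interval -0.76 to 0.81). Without KO 2 the log2 fold change of TFAP2C was -3.30, and without KO 1 that of CITED2 was 1.59. TFAP2C and GATA5 were named after their values were seen.

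Of 37 other trophoblast genes, 15 could be tested. CGA, the alpha subunit of chorionic gonadotropin, HSD3B1, INSL4 and PSG1, genes of mature trophoblast, had 0 reads in all 4 libraries, which allows up to 0.109 CPM in the shallowest. In the list 0 genes were called by edgeR, DESeq2 or limma-voom. At an unadjusted p under 0.05, 3 were lower in edgeR (CDX2, ERVW-1 and DLX3) and 0 were higher. Both KO libraries were below both controls for 5 of the 15 and above them for 1, beside 16.3% and 15.8% of all genes (median log2 fold change -0.18). The median was -1.09 without KO 2 (17 genes), -0.29 without control 1 (15 genes), -0.17 without KO 1 (18 genes) and -0.06 without control 2 (16 genes). The filter on low counts let in different genes in these fits, so the medians are not of the same set. ERVW-1, the syncytin-1 gene, had 17, 77, 8 and 4 reads in control 1, control 2, KO 1 and KO 2, and DLX3, a homeobox factor of placenta, had 19, 60, 10 and 2. Both had their highest level in control 2, and without KO 1 the log2 fold change was -4.12 for DLX3 and -3.42 for ERVW-1. CDX2, the caudal factor of early trophectoderm, had 16 and 11 reads in the controls and 0 in each KO library, and was not highest in control 2. The most abundant members, the syndecan gene SDC1 (log2 fold change 0.38) and TEAD4, a partner of YAP (-0.38), had intervals that include 0. CDX2, ERVW-1, DLX3 and the genes at 0 reads were named after their values were seen.

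Of 19 other amnion genes, 12 could be tested. By edgeR 0 were called, 1 (BAMBI) was lower and 1 (HEY1) higher at an unadjusted p under 0.05, and DESeq2 called 1 (BAMBI). Both KO libraries were below both controls for 3 and above them for 2, beside 16.3% and 15.8% of all genes (median log2 fold change -0.31). The median was -0.08 without control 2, over 12 genes, and -1.39 without KO 2, -0.53 without control 1 and -0.32 without KO 1, each over 15 genes. The larger set includes genes that the filter on low counts removed with all libraries, so its medians cannot be set beside -0.31. Without KO 1 the log2 fold change was -1.75 for BAMBI, 1.72 for TNFRSF19 and 1.84 for HEY1. TBX3 entered that fit through its 60 reads in control 2 and had 0 in KO 2, so its value is no measure of size. The most abundant members were ANXA3 (log2 fold change 0.04, interval -1.50 to 1.58) and ACTC1, the cardiac actin gene (-0.61, interval -1.44 to 0.22). With all libraries HAND1 and TBX3, factors of amnion and extraembryonic mesoderm, failed the filter on low counts because they had reads mostly in 1 library. HAND1 had 1 and 79 reads in controls 1 and 2 against 0 and 3 reads in KO 1 and KO 2, and TBX3 had 5, 60, 3 and 0. Like GATA2, both were highest in control 2. HAND1, TBX3, BAMBI, TNFRSF19 and HEY1 were named after their values were seen.

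BMP signals act through SMAD proteins on a set of well known target genes. Of 11 such genes, of which BAMBI, MSX2 and TBX3 are also in the amnion list, 9 could be tested. Both KO libraries were below both controls for 5 of the 9 (ID1, ID3, ID4, SMAD7 and BAMBI) and above them for 1, SMAD9, beside 16.3% and 15.8% of all genes. The median log2 fold change was -1.16, against 0.029 for all genes. In edgeR's test 0 were called, but these 5 had an unadjusted p under 0.05, beside 4.06% of all genes in either direction. DESeq2 called 4 (ID1, ID4, SMAD7 and BAMBI), beside 0.357% of its genes, and limma-voom called 0. ID1, an inhibitor of helix-loop-helix factors that BMP signals induce, had 92.8 and 177 CPM in controls 1 and 2 against 29.9 and 52.8 CPM in KO 1 and KO 2 (log2 fold change -1.70, interval -2.62 to -0.79, adjusted p = 0.997 in edgeR's test). ID3 had 165, 355, 128 and 105 CPM (log2 fold change -1.16, interval -2.01 to -0.31), and BAMBI, a decoy receptor that BMP and TGF-beta signals induce, had 16.5, 29.6, 7.16 and 6.79 CPM. For ID1, ID3 and BAMBI control 1 lay between control 2 and the KO libraries. Control 2 was highest for 8 of the 9, beside 25.8% of all genes. Without control 2 the median log2 fold change of the 9 was -0.51, against 0.035 for all genes in that fit. All 11 genes could be tested with any of the other libraries left out, and their median was -2.08 without control 1, -1.34 without KO 1 and -1.68 without KO 2. TBX3 is among the 11 through its 60 reads in control 2, against 5, 3 and 0 in control 1, KO 1 and KO 2. These medians thus cannot be set beside -1.16 or -0.51, which leave TBX3 out. The ligand gene BMP4 had 4.40, 6.11, 1.38 and 6.90 CPM, with the highest level in KO 2. ID4, SMAD7, BAMBI, SMAD9 and BMP4 were named after their values were seen.

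**Figure D4:**
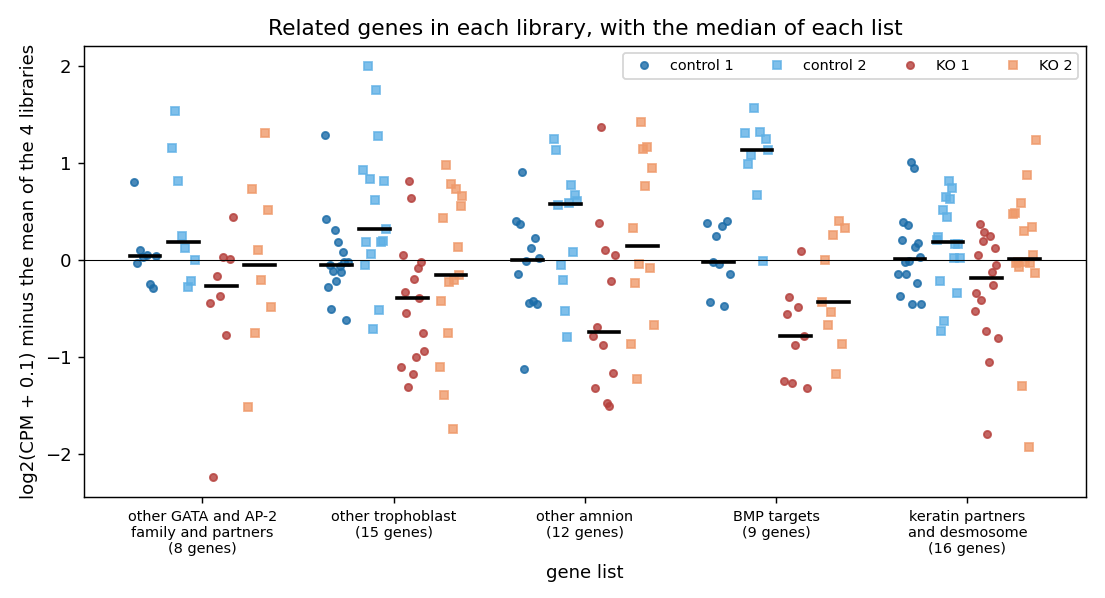
Tested genes of 5 related lists, each as log2(CPM + 0.1) minus its mean over the 4 libraries, 1 point per gene and library; black bars are medians. BMP targets stand apart in control 2 (median 1.13), against -0.02 in control 1, -0.79 in KO 1 and -0.43 in KO 2; genes of keratin partners and desmosomes have medians between -0.19 and 0.18.

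Other keratins, among them those of stratified epithelia, had few reads apart from KRT10. Of 22 other keratin genes, 2 could be tested, KRT10 (log2 fold change -0.43, interval -1.53 to 0.67) and KRT17 (-0.66, interval -2.61 to 1.29), and 0 were called by edgeR or DESeq2, with 0 at an unadjusted p under 0.05. For 8 of the 22 KO 1 was the library with reads, 1 to 5 each and 23 in all, and the other 3 libraries had 0. So few reads allow no comparison.

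Of the 16 partners of keratin filaments, desmosome and epithelial genes, all could be tested and 0 were called by edgeR or DESeq2. Both KO libraries were below both controls for 6 and above them for 1, JUP (plakoglobin), beside 16.3% and 15.8% of all genes. The median log2 fold change was 0.0082, and -0.27 without KO 2. At an unadjusted p under 0.05, PKP3 was lower and JUP higher. PKP3, a desmosomal plakophilin, had 10.5 and 9.12 CPM in controls 1 and 2 against 1.42 and 5.09 CPM in KO 1 and KO 2, and JUP had 128, 90.7, 160 and 211 CPM. CDH1 (E-cadherin; log2 fold change -0.19, interval -0.75 to 0.37) and DSG2 (interval -0.60 to 0.61) were the most abundant. Without KO 2 the log2 fold change of PKP3 was -2.78. Without KO 1 the log2 fold change was 1.45 for VIM and -3.24 for EVPL. PKP3, JUP, VIM and EVPL were named after their values were seen.

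Since GATA2, TFAP2A and keratins also occur in other cell types, markers of those were read in the same libraries. Blood and endothelium markers summed to 34.7 and 34.2 CPM in controls 1 and 2 against 17.6 and 27.0 CPM in KO 1 and KO 2. Of the 10 tested, 3 were lower in both KO libraries and 2 were highest in control 2, beside 16.3% and 25.8% of all genes. TEK, the angiopoietin receptor and the most abundant of them, had 20.5, 18.5, 7.31 and 2.52 CPM, with no peak in control 2. MYB was second (log2 fold change 0.91). Surface ectoderm markers summed to 240, 319, 180 and 227 CPM, mostly from LAMA5 (211, 287, 153 and 201 CPM), and KRT5 had at most 2 reads in any library. EPPK1 had a log2 fold change of -0.16. Neural crest markers summed to 220, 217, 163 and 217 CPM, with ERBB3 among the most abundant, and SOX10 had 0 reads throughout. Endoderm markers summed to 8.08, 11.1, 7.06 and 8.95 CPM, led by AFP and CXCR4. Mesoderm markers summed to 290, 309, 160 and 137 CPM, of which the receptor gene KDR gave most (280, 294, 154 and 131 CPM), TBX6 was second and MSGN1 had 0 reads. At an unadjusted p under 0.05, 3 of 6 tested mesoderm markers were lower in edgeR, beside 4.06% of all genes in either direction, and 4 of 6 were below both controls in each KO library, beside 16.3% of all genes. The median log2 fold change of the tested mesoderm markers, 6 in each fit, was -1.50 with all libraries. It was -2.52 without KO 1, -0.91 without KO 2, -1.60 without control 1 and -1.15 without control 2. Neuroectoderm markers summed to 595, 916, 633 and 1260 CPM, mostly NES and OTX2, and fibroblast markers to 906, 1446, 836 and 1639 CPM, with THY1 and SPARC the most abundant by mean. In these 7 lists edgeR called 0 genes with all libraries and DESeq2 called 1, TEK, beside 0.357% of its genes. Without KO 1 the log2 fold change of TEK, EOMES, PDGFRA and FOXD3 lay between -5.68 (EOMES) and -2.70 (FOXD3). That of SIX3, DLK1, COL1A1 and COL3A1 lay between 1.38 (COL1A1) and 4.42 (DLK1) in the same fit. Without KO 2 the log2 fold change was -2.43 for NGFR, -1.62 for TAGLN and -2.19 for COL1A1. COL1A1 thus turned from 1.38 to -2.19 (log2 fold change) with the KO library left out. Whether other cell types contributed to the level of any of the 10 genes was not tested. KRT5, SOX10, MSGN1 and the genes given with a library left out were named after their values were seen.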

How the data were processed

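Polyadenylated RNA of 4 H9 libraries was sequenced, 2 control and 2 KO, grouped by title. A strand-marking mRNA kit was used, per the labels' protocols. HTSeq 0.11.0, STAR 2.6.0a, cutadapt 1.8.1 and FastQC 0.11.7 are listed in the submitters' processing notes, with GRCh38 (hg38). Which annotation release was counted, and whether by strand, is not given in the sources used here. The labels also name quantile normalisation, but the deposited whole numbers have unequal library totals and do not carry it. The deposited values are read counts per gene, not normalised. Reads given to no single gene, 14.4% to 20.3% of each library, were left out. Symbols, positions and lengths came from GENCODE 29 (93.8% of identifiers matched without version) and start-site windows from RefSeq.

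Genes with few reads were removed (filterByExpr, minimum count 10). KO was compared with control by edgeR 4.0.16 (R 4.3.3; robust quasi-likelihood F test with TMM factors). Tests were two-sided, and p-values were adjusted by Benjamini-Hochberg over all 19027 genes, with a threshold of 0.05. Standard errors are the log2 fold change over the square root of F. An exact permutation of 2 against 2 libraries cannot go below p = 0.333 and was not used. Counts of 19060 genes were simulated with 1 common dispersion, 0.132, and changes were set only in genes averaging at least 50 reads. The test found 1 of 50 genes with a 2-fold change, 27 of 50 with 4-fold, 49 of 50 with 8-fold and 50 of 50 with 32-fold, and called 3 unchanged genes. TFAP2A, GATA3 and VTCN1 average fewer reads, and GATA2 was not called at a log2 fold change of -5.08. These rates therefore do not carry over to the genes with few reads or a large spread between replicates. Replicates differed by a chi-square of 62.0 per degree of freedom in control and 134 in KO, so none was a copy. DESeq2 1.42.0, limma-voom (limma 3.58.1) and other alternatives were tried.

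The 10 genes, the related lists, the tests and the alternatives were chosen with earlier results of these data known. Besides the 10 genes and SLC35F2, called members of a list or else its 2 most abundant tested members were named, with the 5 nearest profiles of GATA2 and KRT18 and RNAs overlapping a gene or starting within 5 kb of its start. Some genes under this rule are not reported here.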

Additional observations from a re-analysis of the deposited data

How the results depend on the processing

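The count of genes called over all genes was 5, and it was 0 with library size only, limma-voom and a mean CPM of at least 1 (787, 692 and 523 genes at an unadjusted p under 0.05), 1 with quantile normalisation and with the legacy quasi-likelihood fit, 8 without a filter, 60 in DESeq2 and 76 with the replicate block. With each library left out in turn it ranged from 3 to 1096, the largest without KO 1. Of the 10 genes 0 were called by edgeR with all libraries, 1 in DESeq2 (GATA2) and 1 with the replicate block (GATA2, adjusted p = 0.00338 in edgeR), and 0 to 1 with a library left out. Of 128 single-gene values under the alternatives, 114 kept their direction and side of the threshold, 4 were newly called and 10 reversed. The reversed log2 fold changes were, for GATA3, -1.30 in limma-voom, -0.24 with quantile normalisation, -0.20 without control 1 and -7.25 without KO 2. They were 1.67 for TFAP2A without control 2, -0.018 for KRT8 with quantile normalisation and -0.30 without KO 2, 0.09 and 0.11 for KRT18 without control 2 and without KO 1, and -0.11 for VTCN1 without KO 2. With a library left out the range was -7.25 to 1.91 for GATA3, -3.22 to 1.67 for TFAP2A, -0.30 to 0.56 for KRT8, -0.21 to 0.11 for KRT18, -0.11 to 0.58 for VTCN1, 0.12 to 0.65 for KRT19, -6.00 to -1.93 for GATA2, -2.49 to -0.59 for GABRP and -1.88 to -0.56 for IGFBP3, with the lone library of a group assumed to vary as the other group does. The cause was not tested. GATA3 and VTCN1 were left out by the filter on mean CPM. The labels do not say that replicate numbers mark a shared culture, and same-numbered libraries deviated together with a correlation of 0.33 over genes, so the block is given here only. With library size only the median change of all genes was -0.097 in place of 0.029. The low counts of GATA3 and VTCN1 limit what can be seen of them.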

Other observations

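The families of the surface and secreted genes showed other profiles. Of 15 other genes of the insulin-like growth factor axis, 12 could be tested, and edgeR and DESeq2 called 0 with all libraries, with 0 at an unadjusted p under 0.05. For none of the 12 were both KO libraries below or above both controls, beside 16.3% and 15.8% of all genes. IGFBP5, a binding protein like IGFBP3, had 3.55 and 13.4 CPM in controls 1 and 2 against 1.20 and 83.5 CPM in KO 1 and KO 2, and PAPPA, a protease that cuts such binding proteins, had 1.38, 3.10, 1.13 and 11.5 CPM. Both were highest in KO 2, the library in which IGFBP3 was lowest. Without KO 1 the log2 fold change of IGFBP5 was 3.32, and without KO 2 it was -2.81, in the opposite direction. The most abundant genes of the axis were IGFBP2 (log2 fold change 0.60) and the receptor gene IGF2R (0.02), with intervals that include 0. Without KO 1 the log2 fold change was 1.24 for IGFBP2 and 2.38 for PAPPA. IGFBP5 and PAPPA were named after their values were seen.

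Of 15 other GABA type A receptor subunits, 13 could be tested, and edgeR, DESeq2 and limma-voom called 0 with all libraries. The median log2 fold change of the 13 was -0.39 with all libraries. It was -0.79 without KO 1, -0.33 without KO 2, -0.70 without control 1 and -0.06 without control 2. Both KO libraries were below both controls for 4 and above them for 1, beside 16.3% and 15.8% of all genes. GABRA5 had an unadjusted p under 0.05 (21.7, 20.7, 13.3 and 9.42 CPM in control 1, control 2, KO 1 and KO 2). GABRQ, among the more abundant, was below both controls in each KO library without passing the test (log2 fold change -0.66, interval -1.38 to 0.07). GABRA5 was named after its values were seen. Of 9 other B7 family genes 4 could be tested, with 0 calls by edgeR and DESeq2 and 0 at an unadjusted p under 0.05. CD276 (B7-H3) was at 182 and 142 CPM in the controls against 197 and 229 in the KO libraries (log2 fold change 0.39 ± 0.27, SE), and NCR3LG1 had a log2 fold change of -0.45.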
